A study of Mus musculus with 12 samples.

Results

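5-Hydroxymethylcytosine (5hmC) over genes was compared between newborn mouse heart and embryonic stem cells (ESC). The comparison rests on 4 of the 12 libraries of the series, taken by their titles: 2 of P1 heart and 2 of the EB5 ESC line. The study profiled 5hmC in ESC, heart and liver at several ages by hMe-Seal, in which a glucose carrying an azide is placed on 5hmC, biotin is attached and the labelled fragments are captured and sequenced. EB5 is 1 line of the 129/Ola strain, sampled at day 3 of culture with LIF, a cytokine that keeps mouse ESC undifferentiated. The hearts were whole tissue of C57BL6/j mice aged neonatal day 1 to 2. Whole P1 liver of the same strain and age, 2 libraries, entered the same fit, because all 6 of these libraries were sequenced with paired ends of 75 bp. No group carries a named allele or drug in the labels. Strain and culture go with ESC against tissue, so the effects of strain, culture and tissue cannot be told apart. Nothing in the labels ties the 2 libraries of a group to different animals or cultures, and each p-value is therefore a statement about the scatter of these libraries, which may be technical.

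5hmC is made from 5-methylcytosine by the Tet enzymes, which are dioxygenases. It is an intermediate of active and passive DNA demethylation and also a stable mark in many tissues. In differentiated cells it is known to lie over the bodies of transcribed genes, whereas ESC also carry it at the promoters of silent developmental genes that are marked by Polycomb.

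For each gene the authors deposited 1 value for a promoter window and 1 for the gene body, both as FPKM, which is a read count scaled to the length of the region and the depth of the library. The window was 4000 bp long and touched the body without overlap in all 13549 genes with a body length above 0. A body was a median of 2027 bp shorter than the RefSeq gene of the same symbol, and in 58.5% of 12371 matched genes the difference lay within 200 bp of 2000 bp, so in most genes the window reaches about 2000 bp into the transcribed region. After a filter on low values 13448 bodies and 13464 windows were tested, 13391 genes in both. Each value was a whole number of reads once length and depth were divided out, and the totals behind the FPKM came to 2016730 and 3963312 reads in ESC and to 1273656 and 1084550 in heart. The median body held 44 and 81 reads in ESC and 25 and 19 in heart, a counting error of 11.1 to 22.9%. The median window held 6 and 10 reads in ESC and 4 and 3 in heart, a counting error of 31.6 to 57.7%. Body readings are therefore far more precise than window readings. Replicates correlated across the 1957 bodies of 100 kb or more with Pearson's r of 0.990 in ESC and 0.984 in heart, across genes, which are not independent. The tissue labels were read from marker bodies. Ttn, the giant sarcomere protein, had more 5hmC in heart than in liver, and 15 of 21 hepatocyte bodies had less, where 8.52% of all bodies differed between the tissues, 6.09% lower and 2.43% higher in heart. Nanog, Sox2, Tet1 and Tet3 were not analysed here.

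The gene bodies of heart and ESC differed widely, in both directions. By limma with Benjamini-Hochberg adjustment over all bodies (adjusted p under 0.05, here a call), 1159 bodies were higher in heart (8.62%) and 1605 were lower (11.9%), and the median body changed by -0.13 on the log2 scale. Fold changes are differences of log2(FPKM + 0.0873) for bodies and log2(FPKM + 0.0786) for windows, which understates the change of low genes. FPKM are shares of a library, so a gain in some genes lowers the values of others. With each library centred on its median the split became 2113 higher and 1208 lower, and the median of all bodies moved to 0.06. The calls rest on both ESC libraries: without ESC replicate 1 there were 0 higher and 8 lower bodies, and without ESC replicate 2 there were 2 and 8. Without a heart library 473 or 629 bodies were higher. Of 80 bodies picked by the rule for naming genes 67 were called, and 64 and 66 of them lost the call without ESC replicate 1 and 2. In whole tissue, fewer cells of a type and less 5hmC per cell cannot be told apart.

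Higher calls were concentrated in long genes. Among 1957 bodies of 100 kb or more 467 were higher in heart (23.9%) and 127 lower (6.49%), with a median of 0.21. Among 11491 shorter bodies 6.02% were higher and 12.9% lower, with a median of -0.19. The medians rose in order through the 6 length classes, from -0.49 under 5 kb to 0.28 at 200 kb and above, where 28.5% of bodies were higher. Longer bodies also hold more reads, and the part of this in the shares called was not tested.

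**Figure D1:**
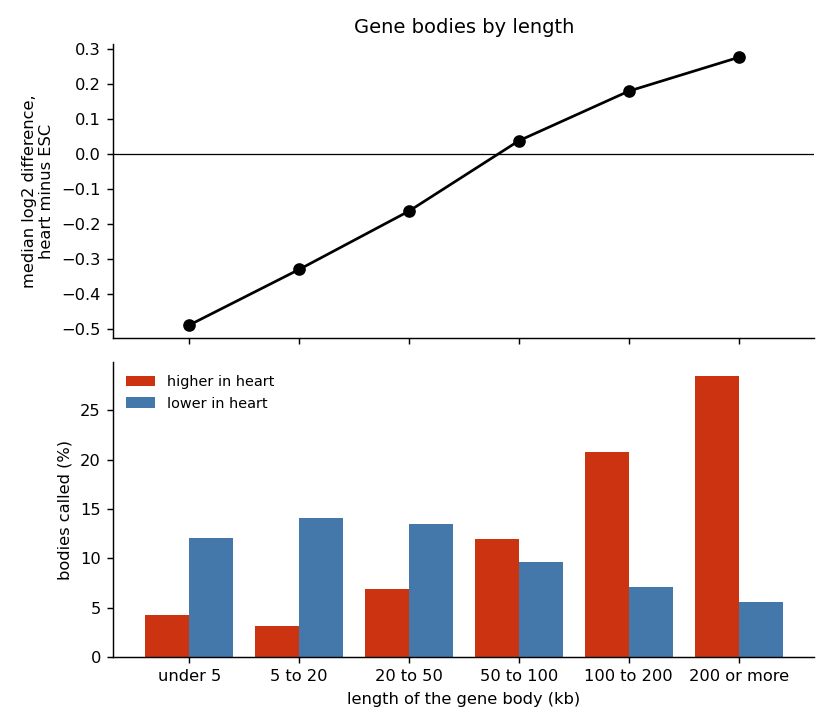
Heart minus ESC difference of gene bodies by body length in kb. The median log2 difference and the percent of bodies called higher or lower are plotted for 6 length classes, and the share called higher is 4.22% under 5 kb and 28.5% at 200 kb and above.

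One chromosome stood apart from the rest. Of 471 bodies that RefSeq places on chromosome 14, 124 were higher in heart (26.3%) and 17 lower (3.61%), with a median of 0.34. On all other chromosomes together 7.98% were higher and 12.2% lower, with a median of -0.14. Pooled over the chromosome's bodies the level was 0.500 and 0.478 FPKM in ESC and 0.695 and 0.640 FPKM in heart, so the groups did not overlap, and in liver it was 0.735 and 0.670 FPKM. Within the chromosome the gain lay between 40 and 80 Mb (mm9), where 91 of 266 bodies were higher and 3 lower and pooled levels were 0.483 and 0.462 FPKM in ESC against 0.875 and 0.794 in heart. Outside that stretch 33 of 205 bodies were higher and the median was 0.04. Windows on chromosome 14 also had a median of 0.43 against -0.02 elsewhere. In this stretch the median difference from ESC was 0.61 in heart and 0.87 in liver, both taken against the same ESC libraries, and the bounds of the stretch were chosen after the values were seen. How much of the change of a gene on this chromosome goes with its place was not tested, and such genes are marked as they appear. Without chromosome 14 there were 1035 higher and 1588 lower bodies.

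**Figure D2:**
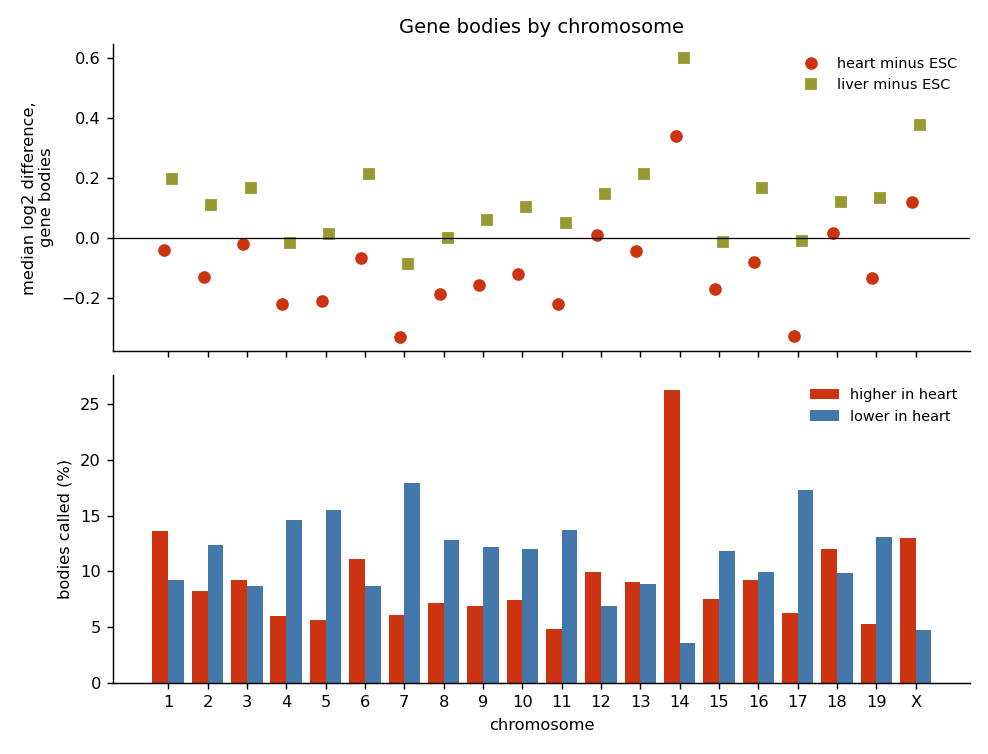
Gene bodies by chromosome, heart against ESC. The upper panel gives the median log2 difference of heart minus ESC (circles) and liver minus ESC (squares) per chromosome, and the lower panel the percent of bodies called higher or lower in heart. Chromosome 14 has the highest medians, 0.34 and 0.60, and 26.3% of its bodies called higher.

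Under the rule that names the 10 called bodies with the largest change in each direction, among those with a mean of at least 30 reads per library and no overlap between the groups, the sodium-calcium exchanger Slc8a1 was the leading heart gene off chromosome 14. This exchanger removes calcium from heart muscle cells after each beat. Its body (bases 81785359 to 82046947, mm9; the tables name no chromosome) held 0.245 and 0.242 FPKM in ESC and 1.49 and 1.498 FPKM in heart. Both heart libraries were about equal and far above both ESC libraries, a log2 difference of 2.26 ± 0.15 (SE; limma adjusted p = 0.00903). Liver held 0.525 and 0.431 FPKM, and heart exceeded liver by 1.49 in the same fit (adjusted p = 0.0265). Loxl2, a lysyl oxidase relative that crosslinks collagen, had the largest rise under this rule, but lies on chromosome 14. It held 0.435 and 0.386 FPKM in ESC against 3.08 and 2.80 FPKM in heart, a difference of 2.60 ± 0.15 (limma adjusted p = 0.00688), and liver was as high at 3.14 and 2.73 FPKM.

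The other named bodies that rose were Slc25a37 (2.22), a mitochondrial iron importer, Vldlr (2.09), a lipoprotein receptor, Trim35 (2.08), Sla (1.99), Samd4 (1.98), Nrp1 (1.95), Ppargc1a (1.86) and Ppp1r14c (1.86), each as a log2 difference. Slc25a37, Trim35 and Samd4 are also on chromosome 14, and the body of Sla lies wholly within that of Tg, so reads of that pair cannot be separated. Nrp1, a co-receptor for VEGF and semaphorins, held 0.185 and 0.232 FPKM in ESC and 1.09 and 1.03 FPKM in heart. Its liver values of 0.886 and 0.800 FPKM were close to those of heart, and the heart minus liver difference was 0.30 ± 0.15 (limma adjusted p = 0.234). Ppp1r14c, an inhibitor of protein phosphatase 1, held 0.266 and 0.242 FPKM in ESC, 1.20 and 1.10 FPKM in heart, and 0.249 and 0.331 FPKM in liver. Its liver libraries stayed near those of ESC, and heart exceeded liver by 1.72 (limma adjusted p = 0.0265).

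The named bodies that fell were Hoxd3 (-3.05), Sfi1 (-2.79), Hoxa3 (-2.72), Cdkn2a (-2.61), Drg1 (-2.56), Six3os1 (-2.43), Hoxb3 (-2.41), Nr2e1 (-2.35) and Pax6 (-2.20), as log2 differences. None of them lies on chromosome 14. Hoxd3, a patterning factor (bases 74551986 to 74586331, mm9), held 1.76 and 1.77 FPKM in ESC and 0.137 and 0.134 FPKM in heart, a difference of -3.05 ± 0.13 (limma adjusted p = 0.0042). Heart kept 6 and 5 reads over the body, where ESC had 122 and 241. Nr2e1, an orphan receptor of neural stem cells, held 1.13 and 1.12 FPKM in ESC and 0.160 and 0.141 FPKM in heart. Cdkn2a, which encodes the cell cycle inhibitor p16 and Arf, held 0.902 and 1.15 FPKM in ESC and 0.0865 and 0.102 FPKM in heart, from 2 reads in each heart library. Of these, 4 are homeobox or paired-box genes, and Six3os1 lies beside the homeobox gene Six3, with its window wholly inside the body of Six3.

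Sfi1, a centrosome protein, had by far the highest values of the named genes in ESC. Its window held 45.0 and 46.4 FPKM in ESC and 2.94 and 1.61 FPKM in heart, a difference of -4.34 ± 0.33 (limma adjusted p = 6.09e-05), and its body held 16.7 and 15.0 FPKM against 2.11 and 2.32 FPKM. Drg1 borrowed part of that signal, since its body as listed contains the whole Sfi1 window. In ESC 363 of 525 and 736 of 1043 reads over Drg1 fell in that window, and in heart 15 of 57 and 7 of 38. Outside it Drg1 held 1.35 and 1.31 FPKM in ESC and 0.556 and 0.482 FPKM in heart, so the groups still did not overlap. That remainder is not the signal of Drg1 alone, since 63.5% of its body as listed overlaps the body of Eif4enif1.

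**Figure D3:**
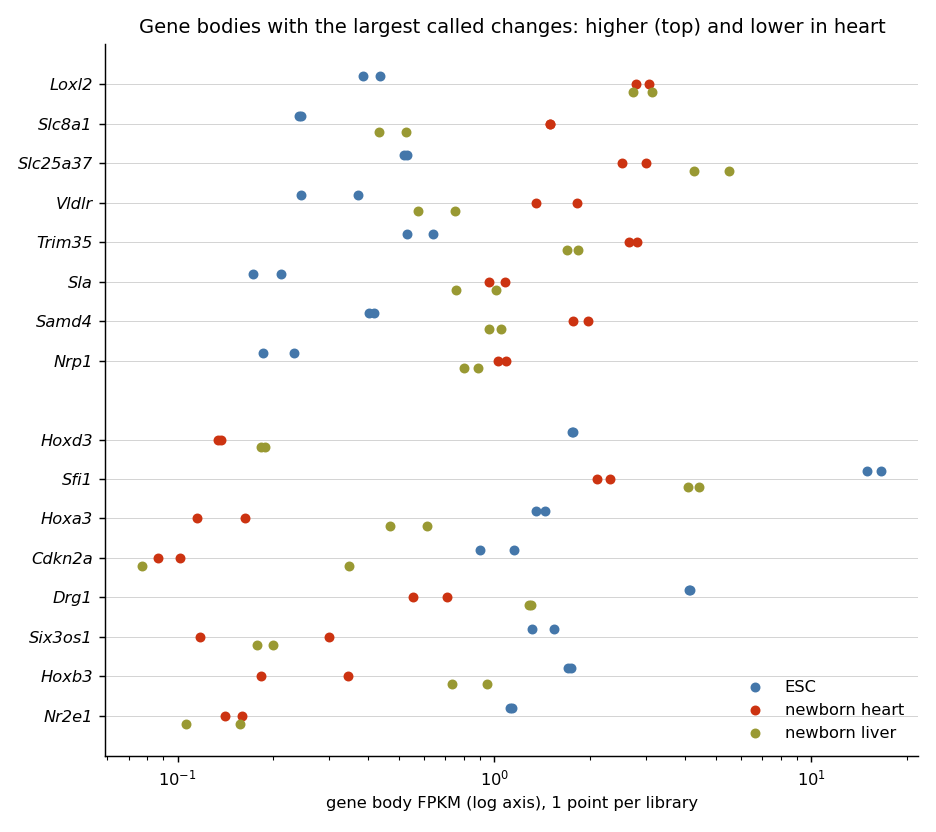
Gene body FPKM of the 8 leading genes in each direction under the naming rule, in each ESC, P1 heart and P1 liver library, on a log axis. Each point is 1 library, and for each of these genes both heart points lie on the same side of both ESC points.

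In each list of cardiac genes some bodies rose and most did not pass the test. The lists below were read by their counts of called bodies against 8.62% higher and 11.9% lower over all bodies, and by their medians against -0.13. Among ion channels and calcium handling genes 9 of 22 bodies were higher and none lower, with a median of 0.56. Among sarcomere genes 4 of 19 were higher and none lower, with a median of 0.52, and among genes of cardiac fuel metabolism 8 of 20 were higher and none lower, with a median of 0.32. For cardiac transcription factors 9 of 26 were higher and 2 lower, with a median of 0.46. All 4 counts of higher bodies fell to 0 without ESC replicate 1. The 4 medians, taken relative to all bodies, stayed between 0.31 and 0.81 under every alternative run.

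The 9 called members of the channel and calcium list include channels of the cardiac action potential and proteins of calcium release and removal. Beside Slc8a1 called members included Kcnj2 (1.96), Camk2d (1.62), Kcnj5 (1.59), Cacna1c (1.41), Kcnq1 (1.06), Ryr2 (1.05) and Cacna2d1 (0.84), in log2. Cacna1c, the pore of the L-type calcium channel, held 0.624 and 0.589 FPKM in ESC and 1.80 and 1.70 FPKM in heart over 600340 bp, from 756 reads or more in each library. Ryr2, through which stored calcium is released at each beat, held 0.488 and 0.446 FPKM in ESC and 1.01 and 1.12 FPKM in heart, a difference of 1.05 ± 0.14 (limma adjusted p = 0.0170), and exceeded liver by 1.67. Kcnj2, the inward rectifier that sets the resting potential, is short and rested on fewer reads, 6 and 15 in ESC and 23 and 14 in heart. Of the 22 bodies, 12 were higher in heart than in liver and none lower, where 2.43% of all bodies were higher. By length, 7 of the 11 members of 100 kb or more were higher than in ESC and 2 of the 11 shorter ones, where 23.9% and 6.02% of all bodies of those lengths were higher.

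Sarcomere genes showed the same direction with fewer calls. Ttn held 0.801 and 0.828 FPKM in ESC, 1.78 and 1.80 FPKM in heart, and 0.307 and 0.286 FPKM in liver. Heart lay above ESC by 1.06 ± 0.13 (limma adjusted p = 0.0167) and above liver by 2.29 (adjusted p = 0.0119), so liver was the lowest of the groups. Myom1, an M-band protein (1.01), Ldb3, a Z-disc protein (1.56), and Myh6, the alpha myosin heavy chain (1.27), also rose. Myh6 held 1.05 and 0.867 FPKM in ESC and 2.32 and 2.52 FPKM in heart. Myh6, Ldb3 and the uncalled Myh7 (0.46, adjusted p = 0.363) are on chromosome 14, and 2 of the 15 sarcomere bodies elsewhere were higher. By length, 2 of the 3 members of 100 kb or more were higher than in ESC, and 2 of the 16 shorter ones (12.5%). Of all bodies of those lengths 23.9% and 6.02% were higher. Actn2, the Z-disc actinin, changed by 0.51 with an adjusted p of 0.0526. In all, 18 of 19 sarcomere bodies had a positive difference, and 8 were higher than in liver with none lower. With libraries centred on their medians 11 sarcomere bodies were called higher, under a scaling that raises the calls over all 13448 bodies from 1159 to 2113.

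In metabolism, the transcriptional coactivators Ppargc1a (1.86) and Ppargc1b (0.96), the nuclear receptor Esrrg (1.56), the fatty acid transporter Cd36 (1.64), the lipase Lpl (0.90) and the beta-oxidation enzymes Acadl (1.03), Hadha (0.99) and Hadhb (0.87) rose, in log2. Ppargc1a, a driver of mitochondrial biogenesis, held 0.249 and 0.194 FPKM in ESC, 1.00 and 1.06 FPKM in heart and 0.730 and 0.780 FPKM in liver. Esrrg held 0.334 and 0.332 FPKM in ESC and 1.11 and 1.19 FPKM in heart, with no overlap. In contrast with the muscle lists, the median heart minus liver difference of this list was 0.00, and 2 of 20 bodies were higher in heart than in liver.

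Among cardiac transcription factors the members divided by direction. Gata4 (1.64), Tbx20 (1.57), Myocd (1.56), Mef2a (1.45), Mef2c (1.33), Gata6 (1.32), Tbx18 (0.82), Hopx (0.81) and Prdm16 (0.55) rose, in log2. Gata4, which is on chromosome 14, held 0.525 and 0.455 FPKM in ESC, 1.70 and 1.73 FPKM in heart and 1.56 and 1.69 FPKM in liver, so both tissues were high. Tbx20, a T-box factor of the heart, held 0.414 and 0.416 FPKM in ESC and 1.503 and 1.31 FPKM in heart, a difference of 1.57 ± 0.14 (limma adjusted p = 0.0140). Myocd, a coactivator of serum response factor, held 0.434 and 0.489 FPKM in ESC and 1.55 and 1.51 FPKM in heart. In the other direction Isl1, a factor of the second heart field that is turned off as cardiac progenitors differentiate, held 1.47 and 1.37 FPKM in ESC and 0.167 and 0.196 FPKM in heart, a difference of -2.49 ± 0.16 (limma adjusted p = 0.00889). Its liver libraries were as low, at 0.223 and 0.179 FPKM. Nkx2-5, a central cardiac factor with a short body, changed by -0.48 (adjusted p = 0.72), and its sign turned to 0.22 without ESC replicate 1 and to 0.16 without heart replicate 2. Hand2, needed for the right ventricle, had 27 reads in ESC and 2 in heart, an ESC to heart ratio of 5.32 with a counting interval of 1.34 to 46.2, and did not pass the test (adjusted p = 0.12). Tbx5, a factor of the left ventricle and forelimb, held 1.28 and 0.904 FPKM in ESC and 1.34 and 1.46 FPKM in heart, which do not overlap but differ by 0.36 with an adjusted p of 0.223. Heart exceeded liver at Tbx5 by 1.79 (limma adjusted p = 0.0268).

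**Figure D4:**
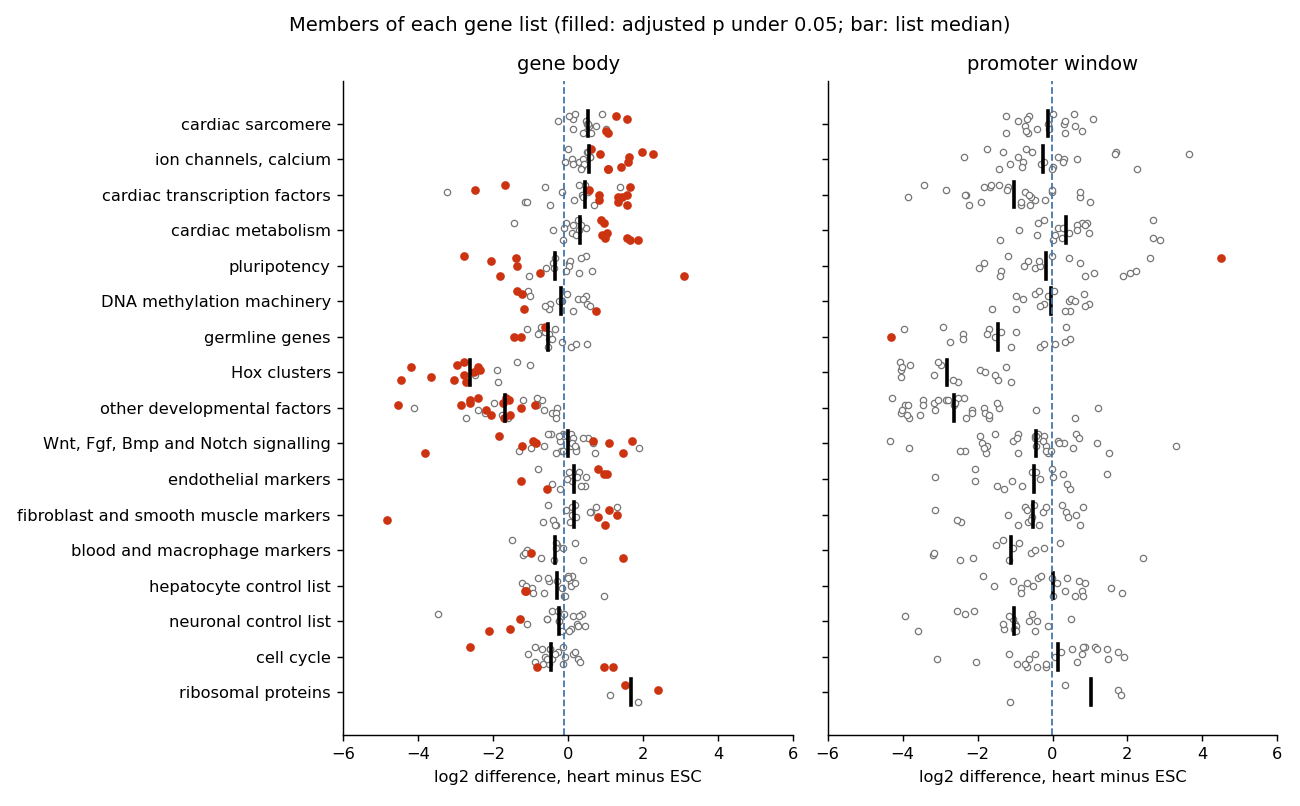
Log2 heart minus ESC difference of each member of the gene lists, for gene bodies and for promoter windows. Points are genes (filled where called), bars are list medians and dashed lines the median of all genes. The Hox and other developmental lists lie far below 0 in both readings while the cardiac transcription factors have a median of 0.46 over bodies and -1.02 in windows.

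Hox genes and developmental transcription factors of other organs had the lowest medians of the 17 lists. Of 16 Hox bodies 11 were lower in heart and none higher, against 11.9% lower over all bodies, with a median of -2.62, or -2.14 with genes that have no read in heart set to the bound that 3 reads allow. Pooled over the list, bodies held 1.45 and 1.47 FPKM in ESC and 0.155 and 0.164 FPKM in heart. The 16 members lie on 4 chromosomes, and 5 of their bodies overlap the window or body of another member, so they are not independent readings. Hoxa3, a factor of the pharyngeal arches (bases 52113358 to 52161338, mm9), held 1.35 and 1.44 FPKM in ESC, 0.164 and 0.115 FPKM in heart and 0.612 and 0.468 FPKM in liver. Heart was below liver by a log2 difference of -1.47 (limma adjusted p = 0.029), and Hoxb3 was below liver by -1.43 (adjusted p = 0.0408). Hoxd4 had 66 reads in ESC and 3 in heart, a ratio of ESC to heart of 8.68 with a counting interval of 2.84 to 43.1. Hoxa11, Hoxb9 and Hoxc9 had no read over their bodies in heart and were at least 3.05-fold, 2.56-fold and 2.85-fold lower there than in ESC. Here and below such folds take the mean of the other group as it stands, without its counting error. Over the list the median of liver minus ESC was -2.34, and these differences share the ESC libraries with those of heart.

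Of 30 developmental factors of other organs 14 were lower in heart and none higher, with a median of -1.69, or -1.59 with genes at 0 set to their bound. Over this list the median of liver minus ESC was -1.72, against the same ESC libraries, and that of heart minus liver was 0.06. Cdx2, a factor of trophectoderm and hindgut, held 2.00 and 1.92 FPKM in ESC and none in either heart library. With 52 reads in ESC it was at least 6.88-fold lower in heart, and liver kept 0.470 and 0.315 FPKM. Pax6, needed for the eye and forebrain, held 1.12 and 1.16 FPKM in ESC and 0.268 and 0.114 FPKM in heart. Pax7, a factor of muscle stem cells, held 1.99 and 1.65 FPKM in ESC and 0.366 and 0.361 FPKM in heart, from 380 and 616 reads in ESC and 44 and 37 in heart. Lhx3, a pituitary and motor neuron factor, held 2.22 and 1.88 FPKM in ESC and 0.130 and 0.458 FPKM in heart. Pdx1, the pancreatic factor, had 63 reads in ESC and 3 in heart, an ESC to heart ratio of 8.28 with a counting interval of 2.71 to 41.2. En2, Lhx2, Lhx9, Pax1, Pax5, Pax9, En1 and T were called as well. Across the alternatives that do not leave out a single library, 10 to 22 members were called lower, and the median relative to all bodies lay between -1.98 and -0.97.

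Genes of the pluripotent state moved in both directions. Of 20 measured bodies 6 were lower and 1 higher, with a median of -0.36, or -0.20 with genes at 0 set to their bound. The lower ones were Tcl1, Prdm14 (-2.07), Dppa4 (-1.82), Fbxo15 (-1.39), Dppa2 (-1.37) and Sall4 (-0.76), in log2. Prdm14, which holds ESC in the naive state, held 1.40 and 2.05 FPKM in ESC and 0.469 and 0.236 FPKM in heart. Tcl1, a cofactor of Akt, had 65 reads in ESC and 3 in heart, a ratio of 8.54 with a counting interval of 2.80 to 42.5. Pou5f1, which encodes Oct4, was the higher one: it had 0 and 1 reads over its short body in ESC and 5 and 2 in heart, a ratio of 17.8 with a counting interval of 2.28 to 800. Its liver values, 1.15 and 1.23 FPKM, were as high as those of heart. Esrrb (-0.37, adjusted p = 0.111), Zfp42 (0.28), Lin28a (-0.59) and Dppa3 (0.64) did not pass the test, and Dppa3 turned to -0.23 without ESC replicate 1.

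In the machinery of DNA methylation 3 of 18 bodies were lower and 1 higher, with a median of -0.20. These counts are not far from the 11.9% lower and 8.62% higher over all bodies. The lower ones included the maintenance pair, Uhrf1 and Dnmt1. Uhrf1, which brings Dnmt1 to hemimethylated DNA, held 2.16 and 2.03 FPKM in ESC and 0.821 and 0.711 FPKM in heart, a difference of -1.36 ± 0.15 (limma adjusted p = 0.0151). Liver was at 2.08 and 1.81 FPKM, and heart was below it by -1.25 (limma adjusted p = 0.0268). Dnmt1, the maintenance methyltransferase, held 2.17 and 2.14 FPKM in ESC and 1.15 and 0.655 FPKM in heart, a difference of -1.23 ± 0.30 (limma adjusted p = 0.0461). Of the 18 members Apobec1 (-1.17) also fell and Mbd2 (0.75), a reader of methylated DNA, rose. Tet2 (0.12, adjusted p = 0.625), Dnmt3a (0.26), Dnmt3b (-0.50) and Dnmt3l (-0.51) did not pass the test. Germline genes had a median of -0.54 with 3 of 17 bodies lower and none higher. The lower ones were Piwil1 (-1.46), Zp3 (-1.26) and Tdrd5 (-0.62), of which Piwil1 binds the small RNAs that silence transposons.

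Markers of the other cells of a heart moved in both directions. Of 16 endothelial bodies 3 were higher, Emcn (0.94), Ets1 (0.81) and Mmrn2 (1.05, on chromosome 14), and 2 lower, Robo4 (-1.27) and Vwf (-0.56). Of 20 fibroblast and smooth muscle bodies 4 were higher, Tagln (1.31), Acta2 (1.09), Dcn (0.99) and Col5a1 (0.80). In that list Tcf21, a factor of cardiac fibroblasts, fell: it had 14 reads in ESC and 0 in heart. Its ESC mean was 1.68-fold above the 3-read bound for heart, a value without the counting error of the ESC reads. Of 14 blood and macrophage bodies 1 was higher, Lyz2 (1.45), and 1 lower, Emr1 (-0.98). These medians were 0.16, 0.14 and -0.36. Signalling genes had 4 of 35 bodies higher and 5 lower, with a median of -0.01. These counts are near the 8.62% higher and 11.9% lower over all bodies. The receptors Fzd7 (1.69), Bmpr1a (1.46, on chromosome 14), Erbb4 (1.10), the neuregulin receptor, and Notch2 (0.66) rose. Few reads lie behind the bodies of Tagln, Lyz2 and Fzd7, with means of 8.5, 4 and 8.5 per library over ESC and heart. The ligands Wnt3a (-1.25), Wnt3 (-0.93), Wnt7b (-0.87) and Wnt1 and the receptor Fzd2 fell. Wnt1 had 32 reads in ESC and 1 in heart, a ratio of 12.6 with a counting interval of 2.11 to 514, and Fzd2 had 30 and 3, a ratio of 3.94 with an interval of 1.23 to 20.2.

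Lists for hepatocytes and neurons served as controls. Of 21 hepatocyte bodies 2 were lower in heart than in ESC, Ass1 (-1.16) and Nr1i3 (-1.11), and none higher, with a median of -0.29. Against liver, 15 of the 21 were lower in heart, with a median of -1.45. Of 21 neuronal bodies 3 were lower, Slc17a7 (-2.13), Grin1 (-1.54) and Stmn2 (-1.30), and none higher. None of the 10 neuronal bodies of 100 kb or more was higher, where 23.9% of all bodies of that length were. Cell cycle bodies had a median of -0.46, with Ccna2 (0.96) and Mki67 (1.19) higher and Cdkn2a and Plk1 (-0.82) lower of 24. The Ccna2 body held a mean of 6.5 reads per library over ESC and heart. Of 4 ribosomal protein bodies Rpl32 (2.41) and Rpl22 (1.51) were higher, on few reads and with near-identical copies elsewhere in the genome, so their values are uncertain.

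Promoter windows gave few calls. By limma 21 of 13464 windows were higher in heart (0.156%) and 25 lower (0.186%), 2745 had an unadjusted p under 0.05, and the median was -0.01. These counts depend on how low values are treated, since a pseudocount 10 times smaller left 0 calls and one 5 times larger gave 217 higher and 424 lower. Without ESC replicate 2 or either liver library there were 0 calls, without ESC replicate 1 there was 1, and without heart replicate 1 and 2 there were 67 and 27 higher and 453 and 87 lower, so single window calls are the least stable values here. In 311 windows neither heart library had a read, and in 63 neither ESC library had one, at a floor of 3 reads over the group of 0.318 FPKM in heart and 0.125 FPKM in ESC. In 10 of the 311 heart was at least 5-fold lower, and in 12 of the 63 it was at least 5-fold higher.

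The windows that fell under the naming rule included those of Galr1, 4930447C04Rik, Gpr26 and Itgb7, none of which had a read in either heart library. Galr1, a receptor for the neuropeptide galanin, held 1.74 and 2.14 FPKM in ESC and was at least 6.10-fold lower in heart (limma adjusted p = 0.0499). Liver had 0 and 0.0702 FPKM there. Gpr26, an orphan receptor whose window lies within the body of Fgfr2 as listed, was at least 5.71-fold lower. Itgb7, an integrin of lymphocytes, held 1.98 and 1.51 FPKM in ESC and was at least 5.50-fold lower in heart (limma adjusted p = 0.0214), while liver had 1.31 and 1.90 FPKM. The single-end heart libraries, outside this comparison, held 1.23 FPKM there at embryonic day 14 and 0.759 and 2.29 FPKM at 8 weeks. In the windows of Galr1, 4930447C04Rik and Gpr26 those libraries held 0.19 FPKM or less.

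The 4 windows that rose under that rule were those of Aqp1, Myl12b, Msh4 and Clca1. Aqp1, the water channel of endothelium and red cells, held 1.49 and 0.631 FPKM in ESC and 4.71 and 4.61 FPKM in heart, a difference of 2.17 ± 0.42 (limma adjusted p = 0.0499), and its body rose by 0.84. Myl12b, a regulatory light chain of nonmuscle myosin, held 0.496 and 0.757 FPKM in ESC and 3.93 and 2.31 FPKM in heart, while its body changed by -0.07. Msh4, a meiotic recombination protein, held 0.744 and 0.694 FPKM in ESC and 3.34 and 3.00 FPKM in heart (2.02 ± 0.34, limma adjusted p = 0.0323). Tdgf1, the Nodal co-receptor Cripto of the pluripotency list, had no read in its window in ESC and 9 and 7 reads in heart, 1.77 and 1.61 FPKM, and was at least 13.5-fold higher there. Liver values overlapped those of heart in the windows of Myl12b (3.41 and 2.88 FPKM), Msh4 (3.67 and 3.23 FPKM) and Tdgf1 (1.05 and 1.83 FPKM). At Aqp1 (2.10 and 1.40 FPKM) and Clca1 (1.31 and 1.26 FPKM) liver was below heart. Those 2 tissue differences did not pass the test (limma adjusted p = 0.194 and 0.177).

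Because 5hmC arises at methylated CG pairs, the promoter sequences of 6 of these genes are shown: 2 developmental factors that lost 5hmC (Hoxa3 and Isl1), and the windows that fell or rose (Itgb7, Aqp1, Myl12b and Tdgf1). Each is the 250 bases before the RefSeq start of the gene, read 5′ to 3′ on the gene's strand, with every CG pair in capitals and all else in lower case. The sequences and their positions are RefSeq's on GRCm38.p6, were matched by symbol, and are not on the mm9 build of the tables. They are a short stretch of the region measured, so they show base composition rather than the place of the reads. The positions are chr6:52213068-52213317 on the minus strand for Hoxa3, chr13:116309689-116309938 on the minus strand for Isl1, chr15:102231936-102232185 on the minus strand for Itgb7, chr6:55336049-55336298 on the plus strand for Aqp1, chr17:70990517-70990766 on the minus strand for Myl12b and chr9:110946159-110946408 on the minus strand for Tdgf1.
Hoxa3: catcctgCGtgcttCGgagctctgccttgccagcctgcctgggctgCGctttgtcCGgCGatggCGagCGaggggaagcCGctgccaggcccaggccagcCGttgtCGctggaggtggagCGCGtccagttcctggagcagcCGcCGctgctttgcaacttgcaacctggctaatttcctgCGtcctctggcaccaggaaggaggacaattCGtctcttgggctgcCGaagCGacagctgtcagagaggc
Isl1: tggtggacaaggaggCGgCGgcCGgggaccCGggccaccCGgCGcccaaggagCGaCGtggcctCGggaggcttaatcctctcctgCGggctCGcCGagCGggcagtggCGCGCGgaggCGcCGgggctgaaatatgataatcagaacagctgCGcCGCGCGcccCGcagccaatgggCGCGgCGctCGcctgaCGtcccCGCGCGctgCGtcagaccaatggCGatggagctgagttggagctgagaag
Itgb7: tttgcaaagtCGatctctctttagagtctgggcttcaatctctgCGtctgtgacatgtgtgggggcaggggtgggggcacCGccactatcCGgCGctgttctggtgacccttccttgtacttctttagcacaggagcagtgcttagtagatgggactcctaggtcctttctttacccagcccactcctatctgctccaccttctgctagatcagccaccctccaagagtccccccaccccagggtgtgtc
Aqp1: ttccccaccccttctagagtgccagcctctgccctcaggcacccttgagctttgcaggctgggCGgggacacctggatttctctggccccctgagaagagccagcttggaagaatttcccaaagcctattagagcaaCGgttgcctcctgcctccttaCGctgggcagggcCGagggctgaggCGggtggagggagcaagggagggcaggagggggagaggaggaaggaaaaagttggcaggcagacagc
Myl12b: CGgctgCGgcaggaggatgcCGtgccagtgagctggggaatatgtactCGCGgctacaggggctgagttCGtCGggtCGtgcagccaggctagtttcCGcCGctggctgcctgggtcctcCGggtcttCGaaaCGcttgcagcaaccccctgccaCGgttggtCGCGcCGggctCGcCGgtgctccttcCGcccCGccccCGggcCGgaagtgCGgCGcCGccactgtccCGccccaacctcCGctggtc
Tdgf1: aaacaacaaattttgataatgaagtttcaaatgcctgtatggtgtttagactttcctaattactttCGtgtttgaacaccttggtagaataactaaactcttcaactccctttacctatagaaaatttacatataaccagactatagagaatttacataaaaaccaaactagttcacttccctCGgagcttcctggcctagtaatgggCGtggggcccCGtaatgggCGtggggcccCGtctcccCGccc
The search was for the letters CG, which read the same on both strands. The median of 27025 RefSeq promoters of this length holds 6 CG pairs. Isl1 holds 33, a number that 3.84% of promoters reach, Myl12b holds 28 (7.26%) and Hoxa3 holds 18 (21.6%). Tdgf1 holds 7 (46.5%), and Itgb7 and Aqp1 hold 5 each (55.5%). Of the 6, the window of Itgb7 was called lower and those of Aqp1, Myl12b and Tdgf1 were called higher, whereas Hoxa3 and Isl1 are shown for their bodies, their windows having adjusted p of 0.388 and 0.11. The promoters of Tbx5, Myocd and Gata4 are named only.

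The signs of the change in window and body of the same gene often differed, though window signs rest on few reads. In 13381 genes with a nonzero difference in both readings, 57.1% had the same sign: 3268 were higher in both and 4367 lower in both. In 3371 the body was lower and the window higher, and in 2375 the body was higher and the window lower. Where the window held a mean of at least 1.5 FPKM, so that counting error is smaller, 62.9% of 1174 genes had the same sign, and where the body was called 63.4% of 2748 did. The differences correlated across genes with Pearson's r of 0.26, and 0.35 at 1.5 FPKM and above, given as a description since window and body share their libraries. In the 12 genes called in both readings all signs were the same, 3 higher and 9 lower. For windows of at least 1.5 FPKM, the heart lay wholly above ESC in 20.6% and wholly below in 37.1%.

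**Figure D5:**
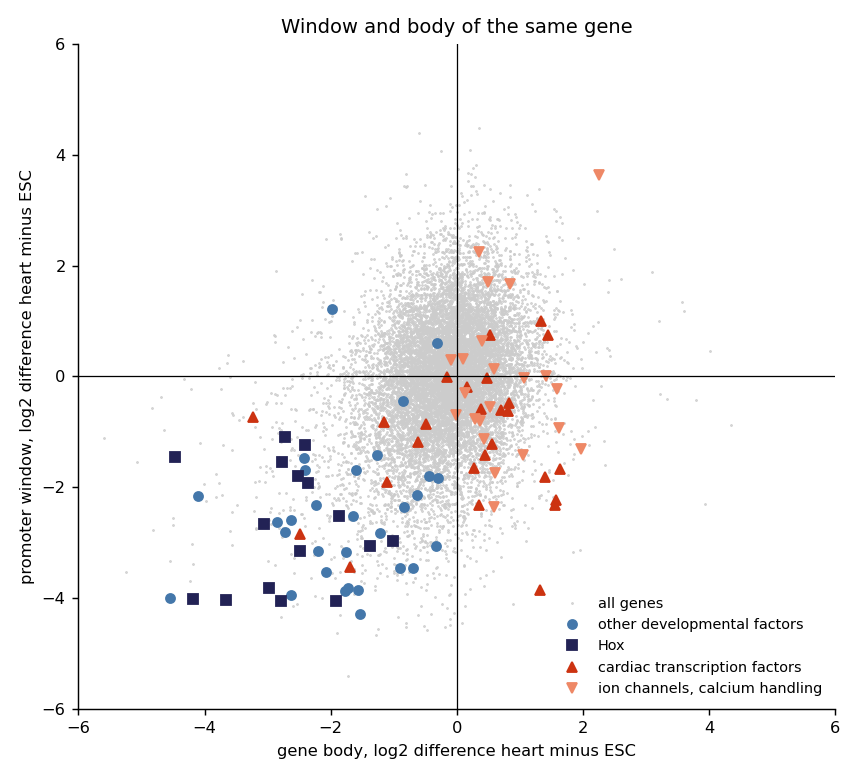
Log2 heart minus ESC difference in the promoter window against that over the gene body, 1 point per gene. The cloud is wide along the window axis, where few reads are counted, and cardiac transcription factors such as Gata6, Tbx5 and Myocd lie right of 0 for the body and below 0 for the window.

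In the cardiac transcription factors the medians of the 2 readings had opposite signs, with none of the 26 windows called. Over bodies their median was 0.46, whereas in windows it was -1.02, or -0.84 with windows at 0 set to their bound, and in 15 of 26 windows both heart libraries lay below both ESC libraries, against 26% of all windows. Among the 4 members whose window held at least 1.5 FPKM the window median was -0.31, with 1 window above and 1 below. The median of window minus body was -1.13 in this list and also -1.13 in the developmental factors of other organs. Pooled over the list, bodies rose from 0.849 and 0.797 FPKM in ESC to 1.48 and 1.40 FPKM in heart, and windows went from 1.27 and 1.18 FPKM to 0.732 and 0.630 FPKM. In liver the pooled bodies held 0.897 and 0.860 FPKM, near ESC, and the pooled windows 0.655 and 0.492 FPKM. The low windows were thus shared with liver, and the high bodies were not. Gata6, a zinc finger factor of the heart and endoderm, held 0.685 and 0.616 FPKM in its body in ESC and 1.92 and 1.60 FPKM in heart. Its window held 1.12 and 1.01 FPKM in ESC, from 25 reads, and none in heart, at least 3.34-fold lower. The window minus body difference of Gata6 passed the test (-5.18 ± 0.82, limma adjusted p = 0.0429), and it was the only member of the list to do so. Tbx5 held 2.23 and 2.14 FPKM in its window in ESC and 0.589 and 0.231 FPKM in heart, which did not pass the test (-2.32 ± 0.79, limma adjusted p = 0.135). Myocd had 43 reads in its window in ESC and 3 in heart, an ESC to heart ratio of 5.65 with a counting interval of 1.81 to 28.5. Tbx20 had 16 reads and 1, a ratio of 6.31 whose interval of 0.98 to 265 includes no change. Nrp1, outside the list, had 29 and 1, a ratio of 11.4 with an interval of 1.90 to 467, while its body rose.

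No window of the 4 cardiac lists was called in either direction. Slc8a1 had 3 window reads in ESC and 17 in heart, a ratio of heart to ESC of 14.4 with a counting interval of 4.16 to 76.5, on the same side as its body (window adjusted p = 0.0633). Cd36 had 2 window reads in ESC and 11 in heart, a ratio of 13.9 with an interval of 3.04 to 129 (adjusted p = 0.0883). The metabolism list had a window median of 0.37 beside its body median of 0.32. Sarcomere and ion channel windows had medians of -0.13 and -0.26, beside body medians of 0.52 and 0.56.

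For developmental genes the window medians were low as well, although no window of the Hox list or of the other developmental factors was called. Hox windows had a median of -2.82, or -1.96 with windows at 0 set to their bound. In 15 of 16 both hearts lay below both ESC libraries, against 26% of all windows. Pooled levels of the Hox windows were 1.28 and 1.40 FPKM in ESC, 0.270 and 0.130 FPKM in heart and 0.311 and 0.237 FPKM in liver. Windows of the other developmental factors had a median of -2.62, or -2.16 with windows at 0 set to their bound, and 28 of 31 lay below. They held 1.38 and 1.29 FPKM pooled in ESC, 0.323 and 0.171 FPKM in heart and 0.279 and 0.236 FPKM in liver. Isl1, a cardiac factor whose body fell, had the same direction in its window, with 5 and 6 reads in ESC and none in heart. Its ESC mean was 1.57-fold above the 3-read bound for heart, a value without the counting error of the ESC reads. Germline windows had a median of -1.46 with 12 of 18 below, and those of blood and neuronal lists had medians of -1.10 and -1.04 (-0.97 and -1.01 with bounds), so other lists had low window medians as well.

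The difference between window and body was tested gene by gene as well. It was higher in heart in 25 genes (0.187%) and lower in 12 (0.0896%) of 13391, with 2495 at an unadjusted p under 0.05, and none was called once any single ESC or liver library was left out. Where a window has no read, the fitted difference depends on the pseudocount and is no bound. Adcy6, a cardiac adenylyl cyclase that makes cyclic AMP, held 1.74 and 1.70 FPKM in its window in ESC, none in P1 heart, and 2.88 and 3.16 FPKM in liver. Its body changed little, from 3.23 and 2.74 FPKM to 2.66 and 2.54 FPKM (-0.19, adjusted p = 0.447), so the difference fell by 4.32 ± 0.44 (limma adjusted p = 0.0175). Heart was also below liver in this window by -5.30 (limma adjusted p = 0.00385). The single-end heart libraries were not empty there, at 0.912 FPKM at embryonic day 14 and 0.791 and 3.82 FPKM at 8 weeks. Itgb7 (-3.73, adjusted p = 0.0394) and Pfdn4 (-4.37, adjusted p = 0.0405) were the other named genes of this kind, and 82.0% of the Pfdn4 window is shared with that of Cyp24a1, a neighbour transcribed the other way. The read minimums of the naming rule left 3 of the 12 lower and 0 of the 25 higher differences eligible. Among the other called genes, chosen here after their values were seen, Wnt11, a noncanonical Wnt of the outflow tract, had 24 window reads in ESC and none in heart beside a body change of 0.21. Cryab, the small heat shock protein of heart muscle, rose over its body (1.57) while its window changed by -1.18. That body held a mean of only 6.25 reads per library over ESC and heart. Tdgf1 (4.15, adjusted p = 0.0394), L1td1, an RNA-binding protein of ESC (5.00), and Gmnn, the inhibitor of replication licensing (4.29), went the opposite way, with windows higher and bodies that did not pass the test.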

How the data were processed

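Values of 6 paired-end libraries (ESC, P1 heart and P1 liver, 2 each) entered the main fits. The single-end libraries entered alternatives only, and their heart values are given for the windows of Adcy6, Itgb7, Galr1, 4930447C04Rik and Gpr26. The authors deposited FPKM per promoter window and gene body, per the file headers. Bowtie2 and the mm9 build are named, per the submitters' processing notes. Its version is not given in the sources used here, nor is the counting tool. No per-sample column went unused (0).

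Values were tested as log2(FPKM + pseudocount) with limma 3.58.1 (R 4.3.3), using group means of the 6 libraries (3 residual degrees of freedom), a variance trend and Benjamini-Hochberg adjustment over all features. Pseudocounts, the median nonzero value divided by 10, were 0.0873 FPKM (bodies) and 0.0786 FPKM (windows), and served as filters on the mean. Calls have an adjusted p under 0.05. The procedure was tested on simulated data in which only features with more expected reads than the median window were changed. That test does not speak to windows of few reads, and its outcome is not reported here. Whole reads were recovered within 0.01 reads. Where a group had no read, folds were taken against 3 reads over that group. Counting intervals are exact at 95%. The folds leave out the counting error of the other group and are no strict limits. Neither folds nor intervals cover more than counting error, since the sources used here name no molecular identifiers.

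Named were a fixed set of marker genes, the 10 bodies and 6 windows per direction with the largest called change (means of at least 30 and 10 reads per library, groups not overlapping), the same for window minus body, and the leading called members of each list. Some genes these rules pick are not reported here. Members and lists were chosen with earlier results of these data known. Chromosome names came from RefSeq for 13431 bodies, by transcript or, where that gave none, by symbol. Promoter CG classes were not compared, because 10589 of 13391 genes (79.1%) had a RefSeq sequence, under the share required. Replicate numbers were checked for pairing. Alternatives varied the libraries, pseudocount, filter, scaling, variance model and test.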

Additional observations from a re-analysis of the deposited data

How the results depend on the processing

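All 2764 called bodies kept their sign in every alternative in which they were tested, but the number of calls did not hold. With all 12 libraries in the fit, bodies numbered 755 higher and 960 lower, windows 4 and 6, and window minus body differences 0 and 0. With the second 8-week heart library left out of that pool these were 1840 and 2634, 400 and 346, and 360 and 138. With only the 4 ESC and heart libraries 721 bodies were higher, windows were 0 and 1, and differences 0 and 0. A pseudocount 10 times smaller gave windows of 0 and 0 and differences of 5 and 3, and one 5 times larger gave 217 and 424, and 243 and 139. Without a filter, windows were 9 and 10. At a mean of at least 10 reads, 4 differences were lower and the share of genes with one direction in window and body was 60.3%. Median centring gave 2113 higher bodies, 62 lower windows and 11 higher differences. Quantile normalization gave 2056 higher bodies, windows of 81 and 68 and differences of 42 and 26. Without the variance trend, windows were 6 and 48 and differences 0 and 0. The voom weights on recovered reads, chosen after seeing the data, gave 2087 and 3439 bodies and 591 and 325 windows. Also chosen after seeing the data, the sign of mean FPKM at windows of at least 1.5 FPKM gave 62.6%. The cause of these shifts was not tested.

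Leaving out 1 library at a time gave 0 to 723 higher and 8 to 1683 lower bodies, 0 to 67 higher and 0 to 453 lower windows, 0 to 214 higher and 0 to 238 lower differences, and one direction in 55.98 to 57.06% of genes. A lone library left in a group is assumed to vary like the other groups. The body of Nkx2-5 ranged from -1.19 to 0.22, turning to 0.22 without ESC replicate 1 and to 0.16 without heart replicate 2, and that of Dppa3 to -0.23 without ESC replicate 1. The planned edgeR and DESeq2 fits were not run, since the deposited unit is FPKM.

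Same-numbered libraries showed little joint deviation (correlations of 0.04, 0.09 and 0.06 between groups over 1957 long bodies). Counting error enters each deviation, so this check cannot tell whether they share an animal, litter or preparation. With the replicate block, 906 bodies were higher and 1345 lower, windows numbered 32 and 37, and differences 0 and 1. Depth is low in windows, where the median in heart was 4 and 3 reads.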
